A study of Taeniopygia guttata with 46 samples.

Results

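The genes described here were the 200 with the largest excess of testis over telencephalon transcript level in adult male zebra finches (Taeniopygia guttata). For each of 18618 annotated genes, counts were scaled to a library total of 1000000 counts and are given in this unit (CPM). The log2 ratio of the mean telencephalon level to the mean testis level was then taken after adding 0.1 CPM to each, and it is called the tissue ratio here. Of 8458 genes with a mean testis level of at least 10 CPM, the 200 with the lowest tissue ratio were kept. The genes were thus chosen by their mean levels in the 2 tissues, so the difference between tissues is described below and not tested. The air temperatures and the differences between birds did not enter the rule. A mean can rest on a few birds, however, and in ENSTGUG00000013287, described below, it did.

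The study asked how heat and cold alter gene activity in brain and gonad. Birds spent 5 h in air at 27 °C, 35 °C or 43 °C, which lies below, within or above the thermoneutral zone, where the body temperature of a bird at rest is held without added heat production or cooling. RNA was sequenced from the posterior telencephalon, a part of the forebrain, of 24 birds (8 at each temperature) and from the testis of 22 of the same birds (7, 8 and 7 in the order of the temperatures). All birds were adult males, no other agent was given, and each sample came from 1 bird, named by the bird number of the labels (T135 to T159). Each testis was a bulk sample of a whole tissue, with germ cells and somatic cells together.

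The testis makes sperm. Spermatogonia divide, spermatocytes go through meiosis and haploid spermatids remodel into sperm, within tubules formed by Sertoli cells and surrounded by testosterone-producing Leydig cells. In vertebrates this tissue is known for a large number of transcripts found in few or no other organs, many of them made in meiotic and later germ cells. In many songbirds, testis size and sperm production follow the breeding season. The breeding state of the birds of this study is not described here.

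The deposited tables give Ensembl gene identifiers without symbols, and the gene table used here could be matched to 0 of the 18618 identifiers. The genes are therefore given by identifier, with no name, role, position or sequence. For the same reason the tissue of the samples could not be checked against germ cell, Sertoli, Leydig or neural markers. The testis sample of T142 carries a tissue entry that reads brain, while its title and source say testis. All 200 genes were counted in it, and they held 8.43% of its counts. This share was 7.29% to 10.04% over all testes and 0.0171% to 0.0236% over the telencephalon libraries. With the T142 testis left out of the rule, 199 of the 200 genes stayed. The share of counts, the test counts, the spread and the shared variation between birds are also given without it. A telencephalon library held between 10201598 and 16862943 counts, and a testis between 14232073 and 25440619, where a paired-end and a single-end column were summed for each bird.

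The tissue ratio of the 200 genes ran from -13.34 to -7.20 on the log2 scale, with a median of -8.56. Over all 8458 genes of at least 10 CPM in testis the median was -0.37. The last genes inside the limit were ENSTGUG00000003391 at -7.21, ENSTGUG00000008333 at -7.21 and ENSTGUG00000005124 at -7.20. The first outside it were ENSTGUG00000012461 at -7.19, ENSTGUG00000006640 at -7.16 and ENSTGUG00000010586 at -7.15, so the limit cut through a continuous range. The genes outside were not lower in testis, with mean levels of 665, 1145 and 866 CPM against 32.7, 20.9 and 38.8 CPM in the 3 genes inside.

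**Figure D1:**
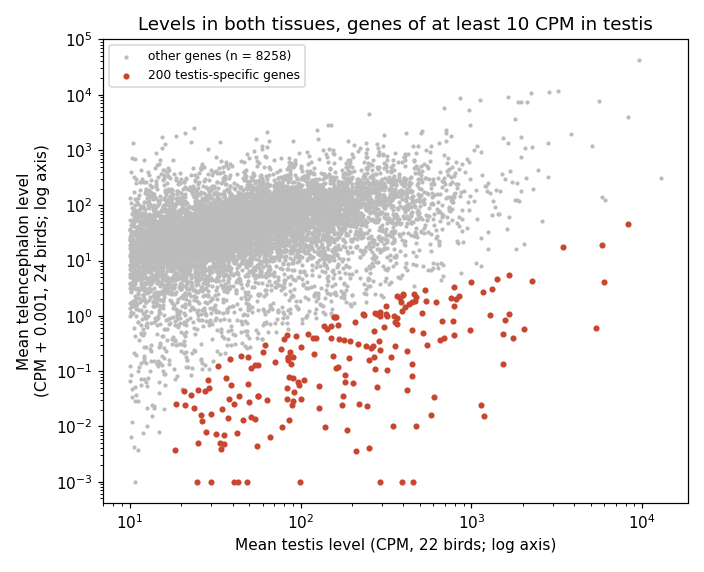
Mean testis level (x axis, CPM, 22 birds) and mean telencephalon level (y axis, CPM plus 0.001, 24 birds) of each gene of at least 10 CPM in testis, both on log axes. The 200 genes of lowest tissue ratio (red) lie along the lower edge of the other 8258 genes (grey). Of the 200, 9 sit at the bottom of the plot with no telencephalon count.

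The plot of levels in both tissues shows that the 200 genes covered nearly the whole range of testis levels. Their mean testis level ran from 18.4 to 8219 CPM, with a median of 180 CPM, against a median of 45.3 CPM in the other 8258 genes of at least 10 CPM. The rule forces a part of this difference, since with 0.1 CPM added a gene low in testis cannot reach a very low ratio. Between 10 and 100 CPM there were 75 of them, and 19 reached 1000 CPM. CPM are not divided by gene length, which the files do not hold, so these values rank counts and not numbers of transcripts. All 200 were counted in each of the 22 testes, 199 were at 1 CPM or more in each testis and 194 were at 10 CPM or more.

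The gene with the lowest tissue ratio was ENSTGUG00000012361, at -13.34. Its testis level was 632 CPM in the lowest bird (T159), 1203 CPM at the median and 1498 CPM in the highest (T156). Across the 24 telencephalon libraries it had 4 counts, in 3 libraries, with 2 of them in T155. ENSTGUG00000006980, at -13.17, ran from 592 through a median of 1182 to 1420 CPM in the testis, and had 8 telencephalon counts in 3 libraries. Of these, 5 were in T155. Both genes were thus among the more highly counted of the testis and nearly uncounted in the brain.

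ENSTGUG00000000451 combined a low ratio, -12.91, with one of the highest testis levels. It ran from 3693 CPM in T159 through a median of 5324 to 6974 CPM in T155, and its 179 telencephalon counts came from 21 libraries. ENSTGUG00000011374 (847 to 2114 CPM, median 1560) had 43 telencephalon counts. The other 6 of the 10 lowest ratios lay between -12.29 and -11.79 and belonged to ENSTGUG00000009036, ENSTGUG00000002250, ENSTGUG00000011693, ENSTGUG00000010766, ENSTGUG00000010723 and ENSTGUG00000001625. Their median testis levels were 418 to 1760 CPM. Of their telencephalon counts, T155 held 6 of 11 in ENSTGUG00000002250 and 3 of 3 in ENSTGUG00000010766. It held 1 of 4 in ENSTGUG00000009036 and 12 of 118 in ENSTGUG00000001625, and ENSTGUG00000011693 and ENSTGUG00000010723 had none in any library. T159 held the lowest testis level in 8 of these 10 genes.

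The highest mean testis levels among the 200 genes belonged to ENSTGUG00000003863, ENSTGUG00000011461, ENSTGUG00000012628, ENSTGUG00000000451 and ENSTGUG00000006920, which together held 31.4% of all testis counts of the 200. ENSTGUG00000003863 ran from 5591 CPM in T159 through a median of 8181 to 10680 CPM in T135. ENSTGUG00000011461 ran from 4327 CPM in T159 through 6010 to 7346 CPM in T147. ENSTGUG00000012628 ran from 4242 CPM in T159 through 5764 to 7682 CPM in T135. All 5 were lowest in T159, and none differed by more than 2-fold between its lowest and highest bird.

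In the telencephalon the 200 genes had 60466 of 305177239 counts. No count at all was found for 9 of them in any of the 24 libraries, 18 had 1 to 3 counts, and 52 in all had fewer than 10. At the other end, 80 genes had 100 counts or more, 68 were counted in every library and 42 had a mean of at least 1 CPM. Their mean telencephalon level ranged from 0 to 45.7 CPM and had a median of 0.176 CPM. The telencephalon counts of the 200 were thus unevenly spread, and the most counted gene alone, ENSTGUG00000003863, held 23.1% of them.

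For the 9 uncounted genes the limit is set by depth. A floor of 3 counts over the 24 libraries together equals 0.00983 CPM, and it covers counting error only. ENSTGUG00000011693, with a mean testis level of 454 CPM, was then at least 46199-fold higher in testis, and ENSTGUG00000010723, at 395 CPM, at least 40152-fold higher. ENSTGUG00000014840, at 24.7 CPM, had the lowest bound of the 9, at least 2515-fold. The bounds differ because the testis levels differ, and they do not order the genes by their true ratio.

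ENSTGUG00000003863 was also the most counted of the 200 in the telencephalon, with 13971 counts. Its telencephalon level was 34.1 CPM in the lowest library, 45.2 CPM at the median and 66.1 CPM in the highest. ENSTGUG00000012628 followed with 5868 counts, at 9.92, 17.8 and 30.8 CPM in the lowest, median and highest library. With ENSTGUG00000006920 (5422 counts) these 3 genes held 41.8% of the telencephalon counts of the 200. All 3 were among the 5 most counted in testis, and each was found in all 24 telencephalon libraries.

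Together the 200 genes took up 7.29% to 10.04% of all testis counts, with a mean of 9.16% ± 0.677 (SD, n = 22 birds). At 27 °C the share was 7.29% in the lowest bird, 9.36% at the median and 9.83% in the highest. At 35 °C these values were 8.66%, 9.40% and 9.69%, and at 43 °C they were 8.28%, 9.23% and 10.04%. The 3 temperatures overlapped throughout, and the medians differed by less than the SD of any of the 3 groups. In a bulk sample, fewer cells of a type and less RNA per cell cannot be told apart, so a share of counts does not say which of them differs between birds.

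The lowest share belonged to T159 at 27 °C, whose paired-end column gave 7.35% and whose single-end column gave 7.25%. The next lowest birds were T145 (8.21%) at 27 °C and T144 (8.28%) at 43 °C. Without T159 the birds at 27 °C ran from 8.21% to 9.83%, with a mean of 9.14% ± 0.661 (SD, n = 6) in place of 8.87% ± 0.922 (SD, n = 7). The total count of T159 was 21415117, within the range of the other testes.

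In the telencephalon the summed level of the 200 genes was 189 to 215 CPM at 27 °C, 171 to 236 CPM at 35 °C and 175 to 208 CPM at 43 °C. The medians were 200.02, 196 and 190.2 CPM. The median number of the 200 genes with a count in a library was 129. The groups overlapped here as well, and the highest library, of T157 at 35 °C, was at 236 CPM.

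**Figure D2:**
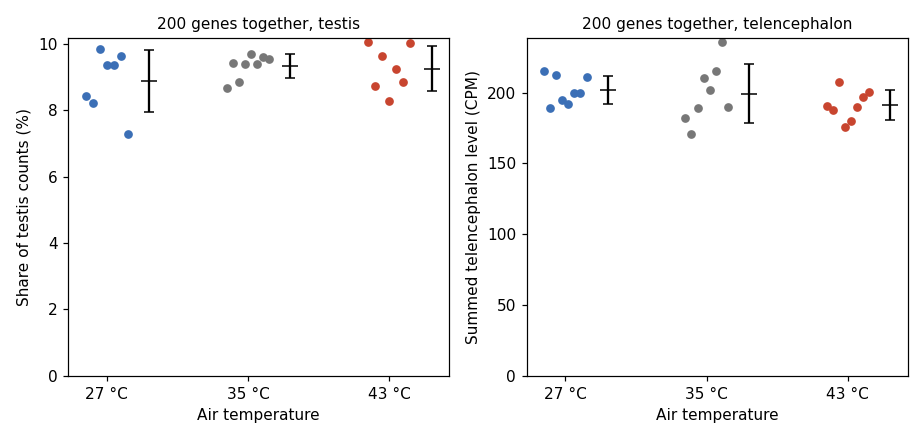
Share of testis counts held by the 200 genes together (left, %) and their summed telencephalon level (right, CPM), 1 point per bird at each air temperature, with the mean and SD in black. The temperatures overlap in both tissues, and the lowest testis point is T159 at 27 °C with 7.29%.

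The plot of shares by temperature places each bird beside its group mean. In the testis the SD was 0.922 percentage points at 27 °C, 0.365 at 35 °C and 0.677 at 43 °C. Without T159 it was 0.661 at 27 °C, below that at 43 °C, so the first place of 27 °C rested on this bird. Without T142 it was 0.987. In the telencephalon the widest group was 35 °C, with an SD of 20.6 CPM against 9.94 CPM at 27 °C and 10.5 CPM at 43 °C.

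The effect of heat on single genes was asked by comparing testes at 43 °C with those at 35 °C. No member of the 200 was called at an adjusted p under 0.05 (edgeR quasi-likelihood test, Benjamini-Hochberg adjustment over 14149 genes), where the share over all genes tested was 0%. At an unadjusted p under 0.05 there were 18 of the 200, or 9%, against 7.94% of all genes tested. Of the 18, 12 were higher at 43 °C (3.74% of all genes tested) and 6 were lower (4.2%). DESeq2 called 0 and placed 18 under an unadjusted p of 0.05, against 7.82% of all genes it tested. The share of the 200 was near that of all genes. The split of directions was not stable. With the birds of these 2 temperatures alone in the edgeR fit there were 26 genes (13%, against 9.73% of all genes tested), 13 higher and 13 lower. Without T156 there were 11 (5.5% against 9.02%), 6 higher and 5 lower, and without T141 there were 11 (5.5% against 6.17%), 8 higher and 3 lower.

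ENSTGUG00000005650 had the smallest p of the 200. Its testis level was 110.1, 133 and 161 CPM in the lowest, median and highest bird at 35 °C, and 136.1, 173 and 225 CPM at 43 °C. Of the 7 birds at 43 °C, 6 exceeded every bird at 35 °C and every bird at 27 °C, and the seventh, T152, lay within their range. The log2 fold change at 43 against 35 °C was 0.47 ± 0.13 (SE) and the adjusted p was 0.560 (edgeR quasi-likelihood test). ENSTGUG00000005307 was next among the higher genes, at 283 to 412 CPM (median 350 CPM) at 35 °C and 375 to 469 CPM (median 396 CPM) at 43 °C. Its groups overlapped, and its log2 fold change was 0.25 ± 0.08 (SE), with an adjusted p of 0.560 in the same test.

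Of the lower genes, ENSTGUG00000006112 had the smallest p. It was at 121, 172 and 216 CPM in the lowest, median and highest bird at 35 °C, and at 86.3, 117 and 149.4 CPM at 43 °C. Of the 8 birds at 35 °C, 7 lay above every bird at 43 °C, and T137 did not. Its log2 fold change was -0.51 ± 0.19 (SE), with an adjusted p of 0.560 in edgeR's quasi-likelihood test. ENSTGUG00000016677 was at 19.8 to 36.0 CPM at 35 °C, while 6 of the 7 birds at 43 °C lay between 16.4 and 18.6 CPM. The seventh, T135, was at 32.3 CPM, and the log2 fold change was -0.57 ± 0.22 (SE), with an adjusted p of 0.566 in the same test.

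The comparison of 27 °C with 35 °C addressed cold. Again 0 of the 200 genes passed an adjusted p of 0.05 in edgeR's quasi-likelihood test, beside 0% of all genes tested. The number with an unadjusted p under 0.05 was 4, or 2%, against 4.33% of all genes tested. All 4 were lower at 27 °C, a direction that held 1.87% of all genes tested, and 0 were higher (2.46% of all genes tested). Among the 4 was ENSTGUG00000013287, at a log2 fold change of -3.82 ± 1.79 (SE). Its mean was 2.82 CPM at 27 °C, 40.1 CPM at 35 °C and 57.7 CPM at 43 °C. It passed the minimum of 10 CPM through a few birds at 35 °C and 43 °C, so its lower level at 27 °C followed in part from its choice. DESeq2 called 0 and placed 3 genes under an unadjusted p of 0.05, against 4.47% of all genes it tested.

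This count depended on single birds. Without T148 it was 21 genes (10.5%, against 6.44% of all genes tested), of which 20 were lower at 27 °C, and without T155 it was 10 (5% against 7.45%). It was 7 without T149 (3.5% against 4.09% of all genes tested) or without T157 (3.5% against 4.75%). It was 3 without T142 (1.5% against 3.65%), 2 without T145 (1% against 3.73%) and 1 without T159 (0.5% against 3.46%). The median log2 fold change of the 200 genes was -0.06 with all birds, beside 0.00 over all genes tested. It was -0.07 without T148 and 0.00 without T159. Both T148 and T159 were birds at 27 °C, and they stood at opposite ends of the variation between birds described below.

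ENSTGUG00000016414 had the smallest p, at 32.9, 150 and 280 CPM in the lowest, median and highest bird at 27 °C and 57.6, 305 and 438 CPM at 35 °C. Its groups overlapped widely, and its log2 fold change was -1.05 ± 0.40 (SE), with an adjusted p of 0.961 (edgeR quasi-likelihood test). ENSTGUG00000010723, which had no telencephalon count, was at 178 to 510 CPM (median 323) at 27 °C and 335 to 543 CPM (median 454) at 35 °C. Its log2 fold change was -0.47 ± 0.20 (SE), with an adjusted p of 0.961 in the same test. The 2 genes with the smallest p among those with a higher value at 27 °C, ENSTGUG00000000900 and ENSTGUG00000007099, had log2 fold changes of 0.27 ± 0.14 and 0.39 ± 0.22 (SE) and an adjusted p of 0.961 each. Neither was under an unadjusted p of 0.05, and both had overlapping groups, with medians of 26.0 against 23.8 CPM and 49.6 against 39.8 CPM.

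Testes at 43 °C were also compared with those at 27 °C, the widest difference in temperature. Of the 200 genes, 0 passed an adjusted p of 0.05 (edgeR quasi-likelihood test), beside 0% of all genes tested. Under an unadjusted p of 0.05 there were 13, or 6.5%, against 6.17% of all genes tested. They comprised 11 that were higher at 43 °C (2.87% of all genes tested) and 2 that were lower (3.3%). The 11 included ENSTGUG00000013287, at a log2 fold change of 4.38 ± 1.85 (SE), with the same limit on its choice. The excess of higher genes rested on T159. Without this bird there were 10 genes (5%, against 5.52% of all genes tested), 5 higher and 5 lower. DESeq2 called 0 and placed 12 under an unadjusted p of 0.05, against 6.27% of all genes it tested. Without T141 the edgeR count was 7 (3.5%, against 5.31% of all genes tested), 5 higher and 2 lower. Without T145 it was 8 (4% against 5.27%), 6 and 2, and without T142 it was 15 (7.5% against 8.45%), 10 and 5. These birds also enter the comparisons above, so the 3 counts are not independent.

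ENSTGUG00000005650 again had the smallest p, with 96.7, 140 and 160.3 CPM in the lowest, median and highest bird at 27 °C. Its log2 fold change at 43 against 27 °C was 0.51 ± 0.14 (SE), with an adjusted p of 0.728 in edgeR's quasi-likelihood test. ENSTGUG00000011758 had 497 to 1095 CPM at 27 °C and 986 to 1320 CPM at 43 °C, with a log2 fold change of 0.38 ± 0.14 (SE). ENSTGUG00000006065 had 13.7 to 49.9 CPM at 27 °C and 10.8 to 25.9 CPM at 43 °C, with a log2 fold change of -0.87 ± 0.30 (SE). ENSTGUG00000006112 had 77.8 to 235 CPM at 27 °C, with a log2 fold change of -0.52 ± 0.20 (SE). Adjusted p-values of these 3 genes in the same test were 0.754, and the groups of each overlapped.

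**Figure D3:**
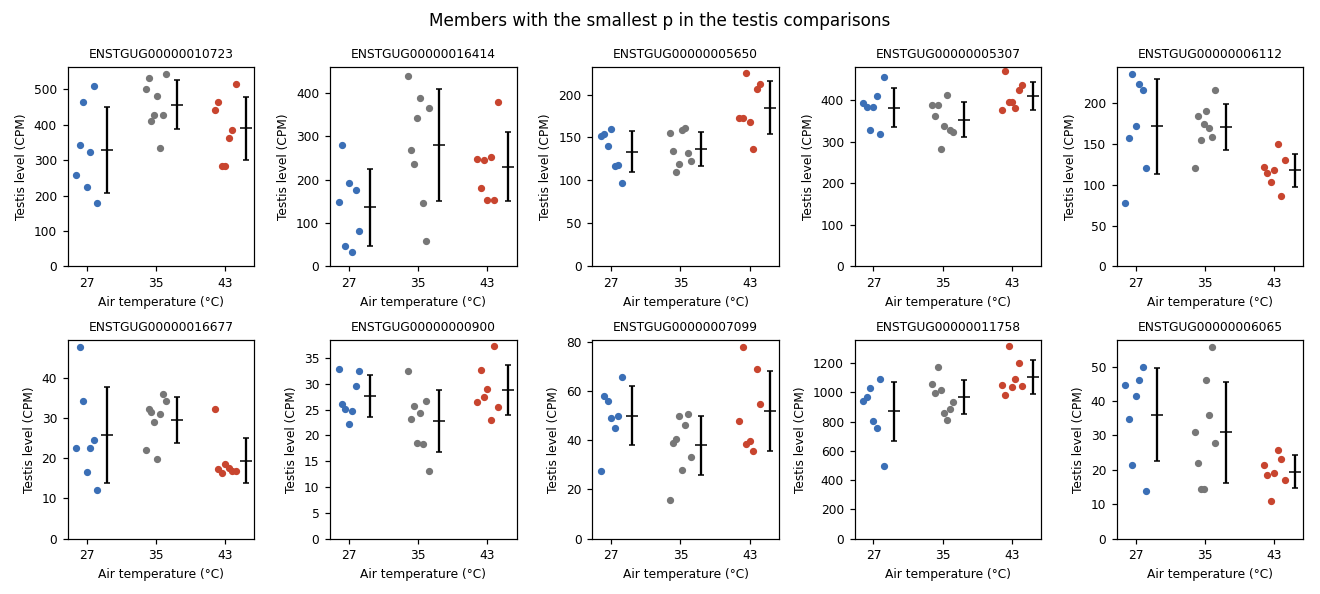
Testis level (y axis, CPM) by air temperature (x axis, °C) of the 10 genes with the smallest p in the 3 testis comparisons, 2 higher and 2 lower in each comparison, with 1 point per bird and the mean and SD in black. In ENSTGUG00000005650, 6 of 7 birds at 43 °C lie above all others, and no gene separates its temperatures completely.

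The plot of these 10 genes shows how far birds of a temperature differed from each other. In ENSTGUG00000016677 a single bird at 43 °C, T135, lay apart from 6 that were close together. In ENSTGUG00000016414 the birds at 27 °C were spread from 32.9 to 280 CPM. For most of the 200 genes the tests limited a change to a modest size: the 95% interval of the log2 fold change lay within 2-fold in either direction for 93% of them at 43 against 35 °C, 95% at 27 against 35 °C and 93% at 43 against 27 °C. Within 1.5-fold it lay for 65.5%, 70% and 65% of them, against 80.9%, 83.5% and 80.4% of the other genes of at least 10 CPM.

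Temperature was also compared in the telencephalon, where 54 of the 200 genes had enough counts to be tested among 13254 genes. The rest were left out for low counts, so the 54 do not stand for the 200. None of the 54 was called in edgeR's quasi-likelihood test in any of the 3 comparisons. Over all genes tested the calls were 0.00754% at 43 against 35 °C, 0% at 27 against 35 °C and 0.0226% at 43 against 27 °C. At an unadjusted p under 0.05 there were 3 of the 54 at 43 against 35 °C (9.1% of all genes tested), 4 at 27 against 35 °C (3.38%) and 0 at 43 against 27 °C (10.9%). DESeq2 took in 191 of the 200 genes and 16995 genes in all. It called 0 of the 191 in each comparison, against 0.0471%, 0% and 0.3% of all genes it tested. At 43 against 35 °C it gave none of the 191 an adjusted p, so none could be called there. Under an unadjusted p of 0.05 it had 3, 7 and 5 of the 191, or 1.57%, 3.66% and 2.62%, against 7.93%, 3.16% and 9.51% of all genes it tested. With no filter on low counts, edgeR also called 0 of the 191 in each comparison, against 0%, 0% and 0.0353% of all 16995 genes. It then had 16, 14 and 13 of the 191 under an unadjusted p of 0.05 (8.38%, 7.33% and 6.81%), against 8.24%, 3.66% and 9.8% of all genes.

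ENSTGUG00000005307, with the largest of these differences, owed it to a single bird. Its telencephalon counts were 3 to 29 at 35 °C (median 9.5) and 4 to 329 at 43 °C (median 16). The 329 counts, or 20.8 CPM, came from T138 at 43 °C and were 46.9% of the 701 counts of this gene, and no other library had more than 42. The log2 fold change at 43 against 35 °C was 1.74 ± 0.72 (SE), with an adjusted p of 0.481 (edgeR quasi-likelihood test). No testis of T138 was analysed here. Among the 80 genes with at least 100 telencephalon counts, the second with over 25% of its counts in 1 bird was ENSTGUG00000013234. It had 83 of 270 counts in T145 at 27 °C, while over the 80 genes the median was 9.14%.

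Within a temperature, the 200 genes had a larger median spread between birds than other testis genes. For each gene the SD between birds was taken on log2 CPM around the means of the 3 temperatures. Its median was 0.33 in the 200 genes and 0.27 in the other 8258 genes of at least 10 CPM, and 127 of the 200 lay above the latter. Among genes of at least 100 CPM the medians were 0.29 in 125 of the 200 genes and 0.22 in 2149 others. At 27 °C alone the median SD of the 200 was 0.37, against 0.28 at 35 °C and 0.28 at 43 °C. The SD was highest at 27 °C in 119 of the 200 genes, or 59.5%, and in 51.9% of the others, and these values were not tested.

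The wider spread at 27 °C rested in part on T159, T148 and T142. Without T159, 105 of the 200 genes (52.5%) had their highest SD at 27 °C, against 49.95% of the others. Without T148 the count was 108 (54% against 50.4%), and without T142 it was 109 (54.5% against 49.8%), so by this count the 200 then lay close to the other genes. With any other bird of that group left out, the count was 120 to 124. The median SD at 27 °C stayed higher in the 200. It was 0.339 without T159, 0.372 without T148 and 0.335 without T142, against 0.285, 0.284 and 0.284 in the others. The 5 least variable genes were ENSTGUG00000002352, ENSTGUG00000003145, ENSTGUG00000012019, ENSTGUG00000013075 and ENSTGUG00000000157, with an SD of 0.13 to 0.15. ENSTGUG00000002352 ran from 284 through a median of 319 to 379 CPM over the 22 testes, less than 1.5-fold from the lowest bird to the highest. ENSTGUG00000012019 ran from 1939 through 2272 to 2690 CPM.

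The birds did not vary in the same way in each gene, but a shared part stood out. The first principal component of the deviations from the temperature means, with each gene scaled to unit variance, held 26.1% of the variance in the 200 genes and 21.2% in the others. At one end lay T159 and T142, at the other T148 and T155, and all 4 were kept at 27 °C. Across the 22 birds, 71 of the 200 genes correlated with this component at r under -0.5 and 23 at r over 0.5. Together these were 47% of the 200, and 34.9% of the other genes lay beyond 0.5 on a first component of their own. These correlations describe the components, which were made from the same genes. The component of the other genes had the same 4 birds at its ends, so this order of birds was not particular to the 200. Without T142 the component held 25.6% of the variance, with 66 genes at r under -0.5 and 20 over 0.5, and without T159 it held 23.6%, with 62 and 23.

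ENSTGUG00000012361, the gene of lowest tissue ratio, was also the one that followed the component most closely (r = -0.90). At 27 °C it was at 1474 CPM in T148 and 1344 CPM in T155, and at 993 CPM in T142 and 632 CPM in T159. ENSTGUG00000010710 (r = -0.89) was at 42.4 and 47.6 CPM in T148 and T155, and at 15.3 and 11.95 CPM in T142 and T159. ENSTGUG00000011831 (r = 0.81) went the other way, with 584 and 535 CPM in T148 and T155 and 1120 and 1097 CPM in T142 and T159. The highest and the lowest of these 4 birds differed more than 2-fold in each of the 3 genes, at the same air temperature.

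T159 had the lowest testis level of all 22 birds in 54 of the 200 genes, or 27%, and in 3.83% of the other genes of at least 10 CPM. T142 followed with 25 of the 200 (12.5%, against 5.76% of the others). T148 had the highest level in 26 of the 200 (13%, against 3.27% of the others). A lowest level in T159 was therefore more frequent among the 200 than among the other testis genes. T159 had the highest level of all birds in 11.3% of those others. No markers could be assigned, and a part of the cell composition of these testes in the pattern was not tested.

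**Figure D4:**
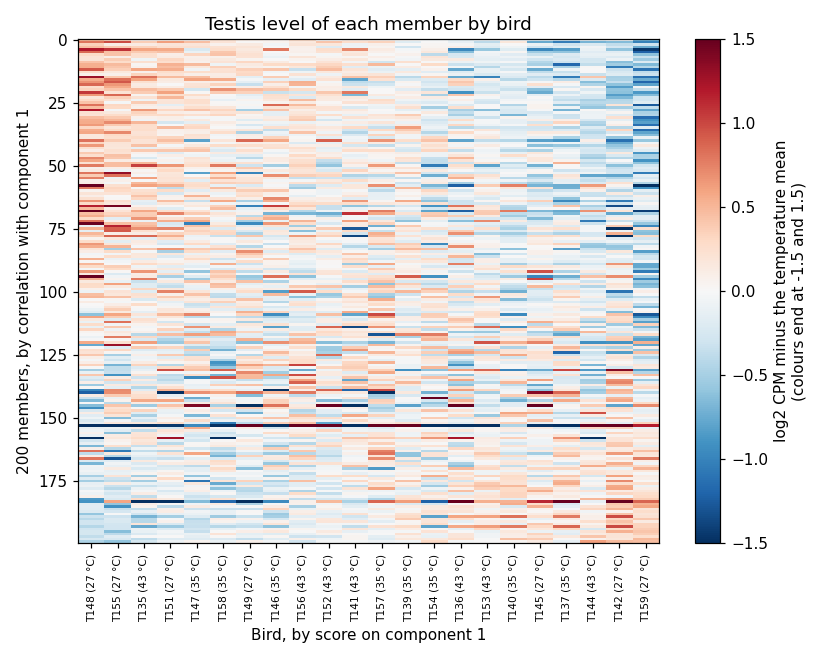
Testis level of each of the 200 genes (rows, ordered by correlation with component 1) in each of the 22 birds (columns, ordered by score on component 1, with the air temperature in brackets), as log2 CPM minus the temperature mean, with red higher and blue lower. T148 and T155 stand at the left end and T142 and T159 at the right end, and the upper rows (71 genes at r under -0.5) run from red to blue between them.

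The heat map of the 200 genes by bird shows that the pattern was graded, with birds of 35 °C and 43 °C between the 4 birds at the ends. Over all 19900 pairs of the 200 genes the median r across birds was 0.05, and 17 pairs had an r over 0.9. The closest pair was ENSTGUG00000017045 (79.5 to 364 CPM) and ENSTGUG00000015530 (49.9 to 223 CPM), with r = 0.99. ENSTGUG00000018222 (36.8 to 276 CPM) and ENSTGUG00000018427 (9.11 to 76.7 CPM) also had r = 0.99. The points share their libraries, and how the counting treated reads that match more than 1 gene is not known.

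Differences between birds were alike in both columns of a testis. Across birds, the paired-end and single-end levels of a gene correlated with a median r of 0.98 over the 200 genes and 0.93 over the others. For 199 of the 200 the mean levels in the 2 columns were within 2-fold. The columns come from the same bird, so they do not replicate a difference between birds.

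Among the genes kept by the rule, the largest spread belonged to ENSTGUG00000013287, with an SD of 3.50 log2 units. Its testis level was 0.0882 CPM in the lowest bird (T136), 0.860 CPM at the median and 358 CPM in the highest (T152). T157 was at 232 CPM, T139 at 84.6 CPM, T144 at 25.1 CPM, T156 at 18.6 CPM, T149 at 8.92 CPM and T142 at 7.81 CPM, and the other 15 birds were under 3 CPM. Each temperature had both high and low birds: 2 of the birds at 5 CPM or more were kept at 27 °C, 2 at 35 °C and 3 at 43 °C. T152, T157 and T139 held 90.7% of its summed level.

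A mean of 33.8 CPM brought this gene past the minimum of 10 CPM, and without T152 and T157 the mean was 7.69 CPM. It had 1 telencephalon count, in T142. By the median over birds, or with the birds at 27 °C alone, it would not have been among the 200. The genes most like it over the 22 birds, among those of at least 10 CPM in testis, were ENSTGUG00000013286 (r = 0.92), ENSTGUG00000008254 (r = 0.92) and ENSTGUG00000000650 (r = 0.89). None of these 3 was among the 200, and their tissue ratios were -4.44, -6.40 and -6.18. They were looked up after the values of ENSTGUG00000013287 had been seen.

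**Figure D5:**
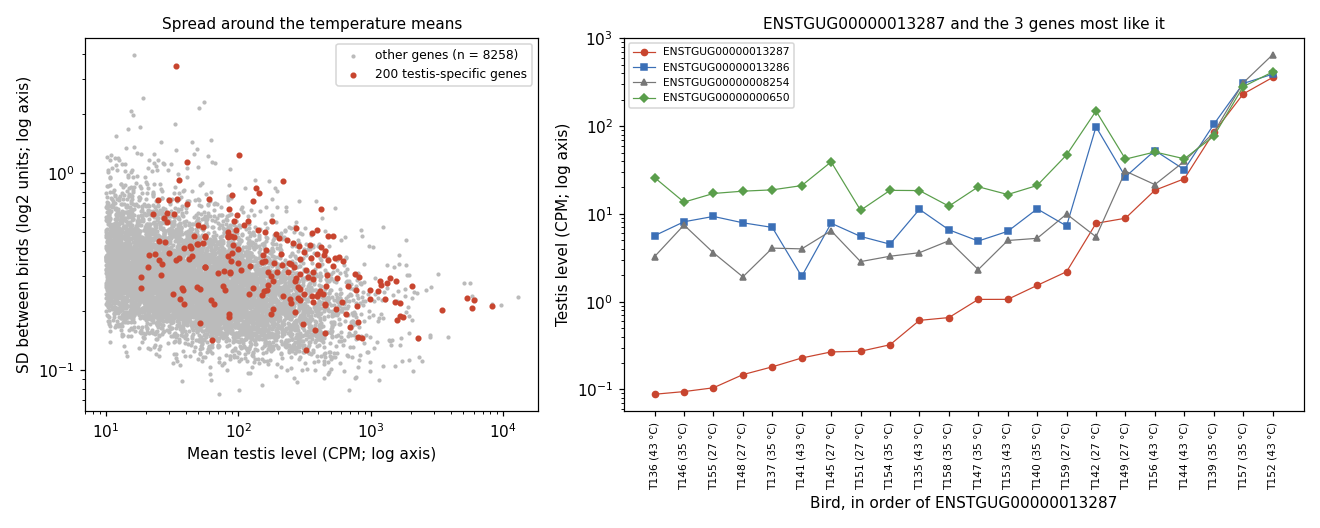
Left, mean testis level (x axis, CPM) and SD between birds (y axis, log2 units) of the 200 genes (red) and the other 8258 genes of at least 10 CPM (grey), both on log axes. Right, testis level (CPM, log axis) in each of the 22 birds of ENSTGUG00000013287, which runs from 0.0882 to 358 CPM, and of the 3 genes most like it, each of which is also highest in T152 and next in T157.

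The plot of spread against level places ENSTGUG00000013287 far above the rest of the 200. In all, 3 of the 200 had an SD over 1, against 0.654% of the other genes of at least 10 CPM. The second was ENSTGUG00000015498, at 19.7 CPM in T149, 88.9 CPM at the median and 268 CPM in T142. The third was ENSTGUG00000002087, at 3.54 CPM in T141, 27.7 CPM at the median and 118 CPM in T145, with no telencephalon count. ENSTGUG00000015814 followed with 7.36 to 85.1 CPM and an SD of 0.92, then ENSTGUG00000016414 with 32.9 to 438 CPM and an SD of 0.91. The highest bird differed in all 5 genes: T152, T142, T145, T151 and T137.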

How the data were processed

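The authors deposited 1 table of counts per gene for each tissue, whole numbers without normalization. The testis table has a paired-end and a single-end column per bird. Its values were deposited by the authors as whole-number raw counts, without normalization, and are recorded here under the unit expected count because of the column names alone. Rounding them changed nothing. Both columns were summed per bird, and whether they are runs of 1 library is not stated. A TruSeq Stranded mRNA kit was used, per the labels. The tools, per the submitters' processing notes, included featureCounts 1.6.4, HISAT2 2.1.0, Trimmomatic 0.36 and CASAVA. The build and the settings were not given in the sources used here. Reads of genes that overlap or are nearly identical could therefore have been assigned to the wrong one.

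CPM used column totals. Tests used edgeR 4.0.16 (R 4.3.3) with TMM scaling, filterByExpr (minimum count 10, minimum total 15), the robust quasi-likelihood F test over all 3 temperatures of a tissue and Benjamini-Hochberg adjustment over all genes tested, with calls at 0.05. Replicates were separate birds. SDs used log2(CPM + 0.1). The alternatives were DESeq2 1.42.0, other scaling, no filter, single columns, shorter and longer lists, 2 groups alone and leaving out birds. The edgeR fit, the rule and a plain SD of log2 values were tested on simulated data. The SD around the temperature means was not. Python 3.11.15 was used for the rest.

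The 200 genes and all lists were chosen with earlier results of these data known. Named genes were the 10 of lowest tissue ratio, the 5 of highest testis level, the 5 most and 5 least variable, the 2 higher and 2 lower of smallest p in each testis comparison, those at the limit of the ratio and the 2 most counted in telencephalon. Other genes named were chosen after their values were seen. Lists of germ cell, somatic, neural and heat shock genes need symbols and were not run.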

Additional observations from a re-analysis of the deposited data

Results flagged for a closer look

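Testis levels of the 35 genes named by rule, and the shares of counts held by the 200 genes, were searched within each temperature for a bird far from the others (Dixon's test at the 95% level). Of 111 groups, 6 had such a bird, where chance alone gives about 5.55 if the groups are independent and normally distributed. The groups share birds, and some genes were chosen for their spread or small p, so that figure is only a rough guide. In all 6 the bird was the highest of its group. ENSTGUG00000000451 was at 6729 CPM in T140 at 35 °C, with the others at 5071 to 5788 CPM. ENSTGUG00000013287 was at 232 CPM in T157 at 35 °C, with the others at 0.0946 to 84.6 CPM, and at 358 CPM in T152 at 43 °C, with the others at 0.0882 to 25.1 CPM. ENSTGUG00000015498 was at 230.1 CPM in T137 at 35 °C, with the others at 25.7 to 109 CPM. ENSTGUG00000002352 was at 379 CPM in T144 at 43 °C, with the others at 309 to 338 CPM. ENSTGUG00000016677 was at 32.3 CPM in T135 at 43 °C, with the others at 16.4 to 18.6 CPM. Each fell on a different bird, none on T159, and no share of counts stood apart in this way.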

How the results depend on the processing

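No paired analysis was possible because the 3 temperatures hold different birds. No call among the 200 genes was made under any alternative run, and the 12 named fold changes kept their sign in all 29 alternatives each. In the telencephalon at 43 against 35 °C, DESeq2 gave none of the genes an adjusted p, so none could be called. The counts at an unadjusted p under 0.05 moved more. With only the groups compared they were 26 for heat (13%, against 9.73% of all genes tested) and 4 for cold (2% against 3.77%). For the widest difference there were 10 (5% against 5.52%). Leaving out each bird in turn gave 11 (without T141 or T156) to 21 genes at 43 against 35 °C, 1 to 21 at 27 against 35 °C and 7 to 17 at 43 against 27 °C. Over all genes tested the share ran from 6.15% to 9.90%, 3.44% to 7.45% and 5.27% to 8.45%, in this order. At 27 against 35 °C, where the count was 4, it was 7 with paired-end columns alone (3.5%, against 4.21% of all genes tested). Of the 400 genes of lowest ratio it was 14 (3.5% against 4.33%). In the telencephalon, dropping the filter brought in 191 of the 200 genes and gave counts of 16 for heat (8.38%, against 8.24% of all genes tested), 14 for cold (7.33% against 3.66%) and 13 for the widest difference (6.81% against 9.8%). DESeq2, which also took in these genes, gave 7 for cold (3.66%, against 3.16% of all genes it tested). It gave 5 for the widest difference (2.62% against 9.51%). Of the 200 genes, 49 were replaced with 1 CPM added and 23 with 0.01 CPM added, and 191 to 200 stayed under the other 10 alternatives. The median share of counts was 9.32% to 9.90% and the median SD 0.32 to 0.34 across alternatives. The upper share came from library sizes scaled by TMM in place of column totals, so it is not a plain share of counts. Leaving out each bird at 27 °C, chosen after seeing the data, gave 105 to 124 genes with their highest SD at 27 °C. Leaving out the 3 birds with a deeper paired-end column, also chosen after seeing the data, gave 17, 6 and 10 genes under an unadjusted p of 0.05. These were 8.5%, 3% and 5% of the 200, against 9.64%, 5.30% and 6.42% of all genes tested. Leaving out T142 or T159, also chosen after seeing the data, gave 86 or 85 genes, in place of 94, beyond an r of 0.5 with the first component of variation between birds. Depth limits the telencephalon, where 52 of the 200 genes had fewer than 10 counts in all.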
